A study of Mus musculus with 6 samples.

Results

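The 35 endothelial and vessel genes described here cover the receptors, ligands, transcription factors and surface proteins that build and mark blood and lymphatic vessels. They were read in branchial arch 1, the embryonic jaw arch, of mice at embryonic day 11.5. A probe set (the group of probes on the array that reports 1 transcript) was taken for a gene when the platform annotation gave it that gene's symbol and no other. All 35 genes had at least 1 such probe set, 60 probe sets in all among 45101, and each gene was followed through its brightest probe set among 18194 genes tested. Both groups carried lox (conditional) alleles of Ezh2, which encodes the histone methyltransferase subunit of Polycomb repressive complex 2. By the sample titles, the 3 arrays labelled control came from Ezh2lox/lox embryos. By the same titles, the 3 arrays labelled mutant came from Ezh2lox/lox embryos with a Wnt1Cre transgene. Such embryos are bred so that Ezh2 is lost in the neural crest lineage. The signal of Hoxa9, given below, goes against these labels. The labels give 1 arch per embryo and call the 3 samples of a group biological replicates, without the number of embryos in a sample.

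Vessels of the embryo form when VEGF ligands from surrounding tissue act on VEGF receptors of endothelial cells, the cells that line every vessel. Angiopoietins and their receptor Tek then steady the new wall, apelin and its receptor guide growth, and ETS and SOX factors hold the endothelial programme in place. Polycomb complex 2 keeps developmental genes silent and acts chiefly at promoters rich in CG dinucleotides. Wnt1-driven Cre acts in the neural crest, which supplies most arch mesenchyme, whereas arch endothelium descends largely from mesoderm. The whole arch was measured, so less RNA from a vessel gene cannot be told apart from fewer vessel cells.

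Of the 35 genes, Clec14a was lower and Vegfc was higher on the arrays labelled mutant, and 33 genes did not pass the test. Their promoter windows, with that of Flt4, the main receptor of the VEGF-C protein, are shown because the results turn on this ligand and on Clec14a. These windows were picked with the calls known. Each window is the 250 bases upstream of the annotated start (RefSeq, GRCm38.p6), written from 5′ to 3′ on the gene's strand, with capitals marking each GGAA or its reverse complement TTCC, the core letters bound by ETS factors.
Vegfc: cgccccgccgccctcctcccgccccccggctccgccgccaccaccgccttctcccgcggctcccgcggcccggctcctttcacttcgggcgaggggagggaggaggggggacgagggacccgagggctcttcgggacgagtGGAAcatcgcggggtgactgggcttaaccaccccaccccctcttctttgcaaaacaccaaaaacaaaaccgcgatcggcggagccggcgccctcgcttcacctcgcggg
Clec14a: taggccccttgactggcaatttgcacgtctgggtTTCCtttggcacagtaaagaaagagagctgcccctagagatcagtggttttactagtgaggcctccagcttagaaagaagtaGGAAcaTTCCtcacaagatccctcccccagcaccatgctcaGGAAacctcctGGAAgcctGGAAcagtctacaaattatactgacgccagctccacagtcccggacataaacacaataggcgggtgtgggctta
Flt4: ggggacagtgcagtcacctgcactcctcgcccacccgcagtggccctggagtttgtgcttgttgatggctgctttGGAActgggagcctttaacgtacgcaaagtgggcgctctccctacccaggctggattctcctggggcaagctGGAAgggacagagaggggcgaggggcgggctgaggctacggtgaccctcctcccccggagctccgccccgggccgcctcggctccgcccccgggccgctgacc

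The Vegfc window lies at chr8:54077282-54077531 on the + strand, the Clec14a window at chr12:58269259-58269508 on the - strand and the Flt4 window at chr11:49609429-49609678 on the + strand. Vegfc held 30 CG dinucleotides and 71.6% G or C. Clec14a held 4 CG dinucleotides and 50.8% G or C, and Flt4 held 16 and 68.4%. Over 32851 promoter windows of that length the median was 6 CG dinucleotides, so that Vegfc was among the richest and Clec14a below the median. Over the 25 windows of the listed genes it was 7. Genes that did not pass also had rich windows, such as Flt1 (23) and 1 window each of Prox1 (20) and Egfl7 (17). Others had poorer ones than Clec14a, such as Emcn (1) and Tek (2). A link between CG content and direction was not tested. The ETS letters, searched as GGAA on both strands, occurred 6 times in Clec14a, 1 time in Vegfc and 2 times in Flt4. Such matches are common, since 93.4% of all windows held at least 1, against 23 of the 25 windows found for 18 of the genes. The median was 3 in both sets. The letters ACGTG of the hypoxia factors, on both strands, were in 2 of the 25 windows (Clec14a and 1 of the Vegfa windows) and in 16.6% of all windows. Those of the SOX factors, ACAAT on both strands, were in 6 of 25, against 27.7%.

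Levels are log2 signals as deposited, on which 1 unit is a 2-fold step, and the arrays share a median of 5.81 and a 25th percentile of 4.33. Differences are labelled mutant minus labelled control, fitted with limma over all 18194 genes, with Benjamini-Hochberg adjusted p over those genes and a threshold of 0.05. The mean signal lay above the array median for 30 of the 35 genes and between the 25th percentile and the median for Tie1, Vwf and Gpr182. That array median covers all probe sets. With each gene at its brightest probe set, the median level was 7.71 for the 35 genes and 7.13 over all genes tested. Prox1 and Lyve1, which mark lymphatic endothelium, lay below the 25th percentile, so their probe sets gave no clear signal of that cell type. Cdh5, the defining cadherin of endothelial junctions and not one of the 35, read 8.07 to 8.43 on the labelled-control and 8.07 to 8.28 on the labelled-mutant arrays.

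The array facts that touch every value are few. The probe set of Ezh2 read 11.52 to 11.80 on the control-labelled arrays and 11.65 to 11.66 on the mutant-labelled ones, and its place relative to the deleted part was not determined, so it checks neither label. Hoxa9, a Polycomb target normally silent in the jaw arch, read 10.86 to 11.57 on the labelled-control and 3.82 to 4.51 on the labelled-mutant arrays, which goes against the labels. Every direction given here, above and below, therefore holds for the labels only. Xist, expressed from the inactive X of females, read 5.45 to 5.75 on the control-labelled arrays and 12.92 to 13.10 on the mutant-labelled ones, and the Y-linked Kdm5d, Eif2s3y and Uty lay at 8.07 to 9.26 and at 2.84 to 3.61. Embryo sex and label cannot be told apart in any comparison. Correlations over genes were 0.995 to 0.998 within and 0.988 to 0.992 between groups, and no array repeated another.

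Over the list as a whole most differences were small. With limma, 1 gene passed in each direction, or 5.71% of the 35, against 5.53% of all genes tested (1.23% higher and 4.3% lower), a share near the background. The median difference was -0.09, against 0.02 over all genes, and the median size of a difference was 0.10 in both. A size of at least 0.4 was reached by 5 of the 35 genes, or 14.3%, a larger share than the 7.38% of all genes. Of these, Clec14a, Tal1, Vwf and Aplnr were lower and Vegfc was higher. The 3 arrays of one label did not overlap those of the other for 6 of the 35, or 17.1%, against 24.9% of all genes. Among the 33 genes that did not pass, differences ran from -0.62 for Tal1 to 0.28 for Angpt2.

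**Figure D1:**
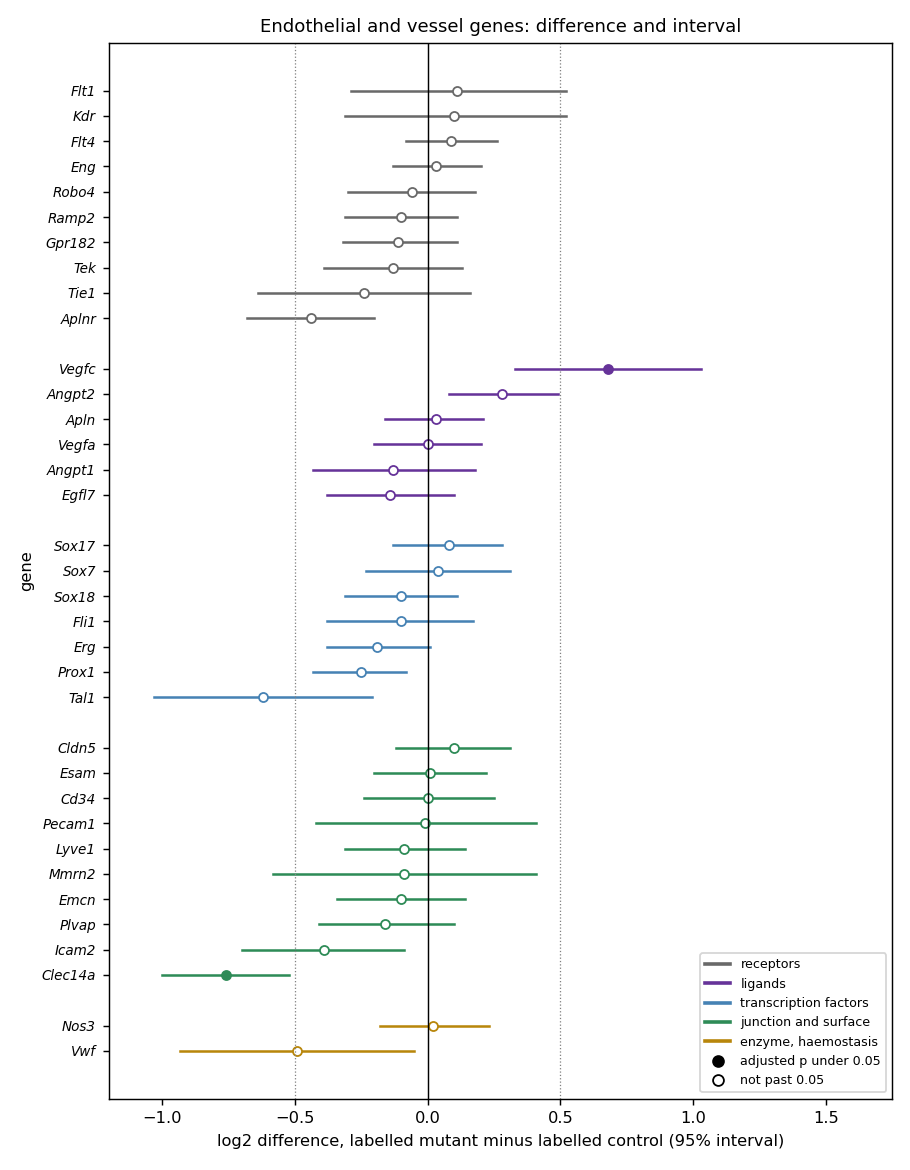
Log2 difference (labelled mutant minus labelled control, 3 arrays each) of the 35 genes on the horizontal axis, by role of the gene product, with its 95% interval as a line. The filled points, Clec14a at -0.76 and Vegfc at 0.68, are past an adjusted p of 0.05, and dotted lines mark 0.5 either way.

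The intervals say how large a shift the data still allow. The 95% confidence interval of the moderated fit, taken gene by gene with no adjustment for their number, had a median half-width of 0.24, from 0.17 to 0.50, against a median of 0.21 over all genes. It lay wholly within 0.5 of 0 for 25 of the 35 genes, or 71.4%, against 83.2% of all genes. It lay wholly within 1, a 2-fold change, for 33, or 94.3%, against 96.8%. The exceptions to the 2-fold bound were Vegfc upward and Tal1 downward, and the interval of Clec14a ended at it. A fall of 0.5 or more lay outside the interval of 28 genes and a rise of that size outside the interval of 32. These counts include Prox1 and Lyve1, whose mean signals lay below the 25th percentile. The intervals of those 2 genes bear little on a change in level. The median SD between arrays was 0.16 for the labelled controls and 0.12 for the labelled mutants, against 0.12 and 0.08 over all genes.

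Among the ligands, Vegfc alone passed. VEGF-C drives the sprouting of lymphatic vessels and is made by mesenchyme as well as by endothelium. Vegfc read 8.74, 8.79 and 8.17 on labelled-control arrays 1, 2 and 3, and 9.19, 9.30 and 9.26 on the labelled-mutant arrays in the same order. All 3 labelled-mutant arrays lay above the highest labelled-control array, and labelled-control array 3 was the low one. The group means were 8.57 ± 0.34 and 9.25 ± 0.05 (SD, n = 3), a 1.61-fold rise whose interval runs from 1.26-fold to 2.05-fold (limma, Benjamini-Hochberg adjusted p = 0.0386). Its 3 probe sets rose by 0.68, 0.75 and 0.76, and each separated the groups. In a fit over all 45101 probe sets, of which 2.14% passed, the dimmer 2 passed (limma, Benjamini-Hochberg adjusted p = 0.0298 and 0.0111) and the brightest did not (0.0872). Among the 6 fits that left out 1 array, the gene's call was kept without labelled-control array 3 and lost in the other 5. The difference was 0.77 and 0.80 without labelled-control arrays 1 and 2 (adjusted p = 0.0516 and 0.0519) and 0.71, 0.66 and 0.68 without labelled-mutant arrays 1, 2 and 3 (0.0802, 0.139 and 0.137). Leaving out labelled-control array 3 gave 0.49 (limma, adjusted p = 0.0165). The call was also lost with signals floored at the 20th percentile (limma, Benjamini-Hochberg adjusted p = 0.156).

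Angpt2, which loosens the vessel wall as an antagonist of Tek, read 5.89, 6.04 and 6.14 on the labelled-control and 6.27, 6.25 and 6.40 on the labelled-mutant arrays. The groups did not overlap, yet the difference of 0.28 (interval 0.08 to 0.49) did not pass (limma, Benjamini-Hochberg adjusted p = 0.131). A dimmer probe set of Angpt2, at 3.87 to 3.96 on the labelled-control arrays, showed a difference of 0.00. Angpt1, the Tek agonist made by mesenchyme around vessels, read 6.34, 6.61 and 6.74 against 6.49, 6.20 and 6.61. Those groups overlapped, with a difference of -0.13 and an interval from -0.43 to 0.18.

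Vegfa, the principal growth signal of blood vessels, was the most even of the ligands between the labels. It read 8.25, 8.15 and 8.15 on the labelled-control and 8.27, 8.26 and 8.04 on the labelled-mutant arrays. The difference of this brightest probe set was 0.00, with an interval from -0.20 to 0.20. For that probe set the interval allows at most a 1.15-fold rise and a fall to 0.871 of the labelled-control level. The second, dimmer probe set of Vegfa had a difference of 0.10, with a wider interval from -0.22 to 0.43 in the fit over all probe sets. Apln, the apelin gene on the X chromosome, read 7.63, 7.50 and 7.66 against 7.70, 7.58 and 7.58, a difference of 0.03 with an interval from -0.16 to 0.21. Egfl7, a secreted protein of endothelial matrix, read 8.84, 9.09 and 9.19 against 8.99, 8.89 and 8.81. Its difference was -0.14, and its 4 probe sets ran from -0.23 to -0.02.

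None of the 10 receptors passed with limma, and 1, Aplnr, had an unadjusted p under 0.05, as did 18.7% of all genes tested. Aplnr, the apelin receptor, read 11.41, 11.79 and 11.58 on the labelled-control and 11.09, 11.13 and 11.24 on the labelled-mutant arrays. Every labelled-mutant array lay below every labelled-control array. The difference of -0.44, from 11.59 ± 0.19 to 11.15 ± 0.08 (SD, n = 3), just missed the threshold (limma, Benjamini-Hochberg adjusted p = 0.0506), and its interval ran from -0.68 to -0.20. Aplnr passed in 3 of 14 alternatives: with genes above the 25th percentile only (adjusted p = 0.0487), with trend and robust settings (0.0255) and without labelled-control array 1 (0.0256), where the difference was -0.53. Its dimmer probe set gave -0.29 with overlapping groups.

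The VEGF receptors showed no call. Kdr, the main signalling receptor for VEGF-A, read 8.11, 8.95 and 8.57 on the labelled-control and 8.60, 8.64 and 8.70 on the labelled-mutant arrays. The labelled-mutant arrays lay close together, inside the wide labelled-control range. The difference was 0.10, with an interval from -0.31 to 0.52. Flt1, a high-affinity receptor that traps VEGF-A, read 7.51, 7.51 and 6.81 against 7.50, 7.34 and 7.33, with labelled-control array 3 as the low one. Its 4 probe sets had differences from -0.01 to 0.11. Flt4, the receptor of VEGF-C, read 8.00, 8.07 and 7.96 against 8.14, 8.06 and 8.10. The groups overlapped, and the interval from -0.08 to 0.26 is one of the narrowest. The second probe set of Flt4 gave 0.28 with groups that did not overlap (limma over all probe sets, Benjamini-Hochberg adjusted p = 0.315).

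The angiopoietin receptors were also without a call. Tek read 7.18, 7.53 and 7.38 on the labelled-control and 7.09, 7.22 and 7.39 on the labelled-mutant arrays, a difference of -0.13 with an interval from -0.39 to 0.13. Tie1, its orphan partner, read 5.34, 5.93 and 6.01 against 5.72, 5.43 and 5.40, a difference of -0.24. The interval of Tie1 reaches down to -0.64, and labelled-control array 1 was the lowest of the 6. The remaining receptors had differences of 0.11 or less in size. Eng, a co-receptor for TGF-beta family ligands, had a difference of 0.03 with an interval from -0.13 to 0.20. Robo4, a guidance receptor of endothelium, Ramp2, the partner of the adrenomedullin receptor, and the endothelial receptor Gpr182 had differences of -0.06, -0.10 and -0.11, and all 3 intervals lay between -0.32 and 0.18.

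No transcription factor of the 7 passed with limma, while 2, Tal1 and Prox1, had an unadjusted p under 0.05 (18.7% of all genes did). Tal1, a helix-loop-helix factor of blood and early endothelium, read 8.34, 8.26 and 8.95 on the labelled-control and 8.08, 7.72 and 7.90 on the labelled-mutant arrays. The groups did not overlap, and labelled-control array 3 stood highest. The means were 8.52 ± 0.38 and 7.90 ± 0.18 (SD, n = 3), a difference of -0.62 with an interval from -1.03 to -0.21 (limma, Benjamini-Hochberg adjusted p = 0.0963). Without labelled-control array 3 the difference was -0.40. Tal1 is also expressed by erythroid cells and megakaryocytes, and those markers were high on the same array. The mean signal of 13 erythroid genes was 8.95, 9.19 and 9.47 on the labelled-control and 9.07, 8.79 and 8.94 on the labelled-mutant arrays. For 8 megakaryocyte and platelet genes it was 7.13, 6.95 and 7.73 against 7.29, 6.80 and 6.99. The part of these cells in the Tal1 result was not tested.

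The other factors lay closer together. Sox17 and Sox18, SOX factors of arterial and of lymphatic specification, had differences of 0.08 and -0.10. Sox17 read 7.41, 7.46 and 7.39 against 7.48, 7.66 and 7.36, and Sox18 read 7.75, 7.64 and 7.93 against 7.66, 7.74 and 7.62. Both genes overlapped between the groups, as did Sox7, of the same subfamily, with a difference of 0.04. Erg, an ETS factor that maintains endothelial junctions, read 7.10, 7.19 and 7.31 against 6.97, 6.96 and 7.10. Its difference of -0.19 had an interval from -0.38 to 0.01, and the dimmer probe set gave -0.19 as well. Fli1, an ETS factor of endothelium, blood and also neural crest, had a difference of -0.10 with an interval from -0.38 to 0.17. Prox1, the master factor of lymphatic identity, read 3.85, 3.79 and 3.81 against 3.47, 3.66 and 3.56. Its groups did not overlap (difference -0.25, limma, Benjamini-Hochberg adjusted p = 0.118), but every value lies below the 25th percentile and bears little on a lymphatic level.

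**Figure D2:**
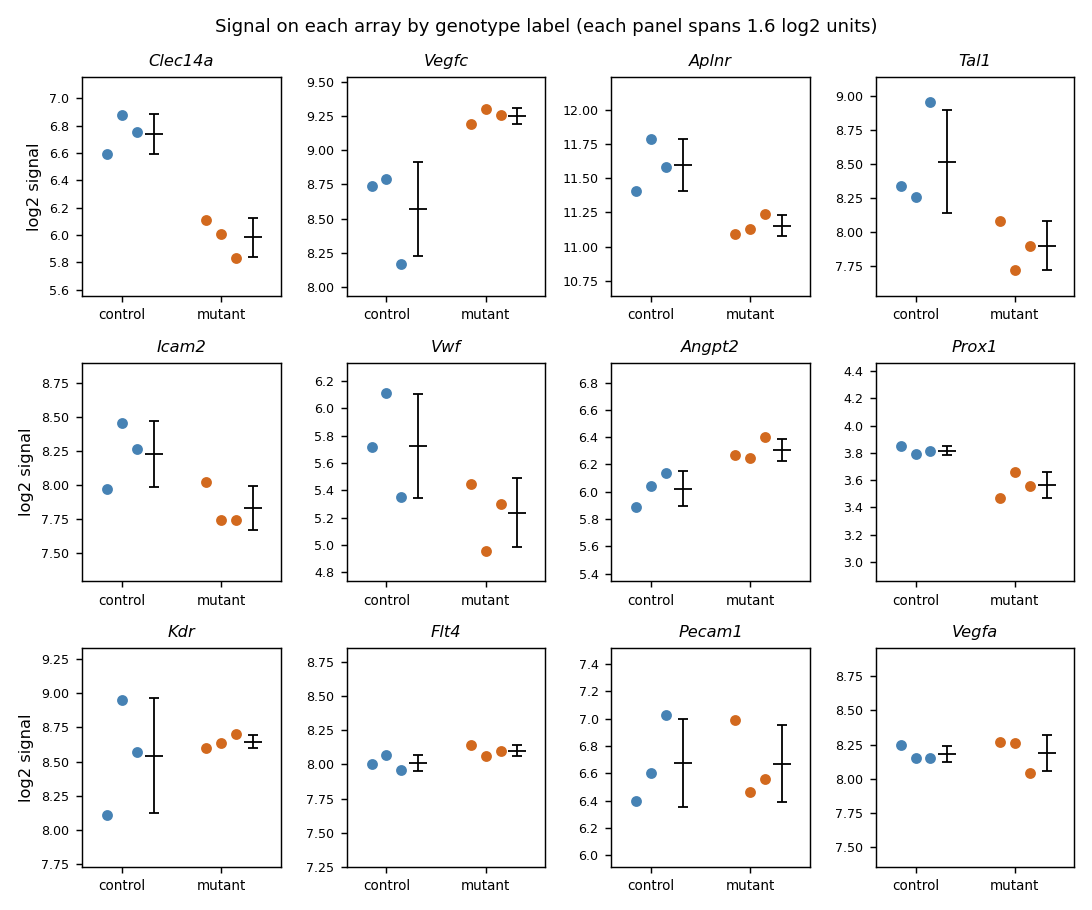
Log2 signal (vertical axis) of 12 genes on the 3 labelled-control (blue) and 3 labelled-mutant (orange) arrays, in replicate order, with the group mean ± SD in black. The groups do not overlap for Clec14a, Vegfc, Aplnr, Tal1, Angpt2 and Prox1, and overlap for the other panels.

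Clec14a had the largest difference in size of the 35 genes. It encodes a C-type lectin of endothelial surfaces that binds the matrix protein made by Mmrn2. Clec14a read 6.59, 6.88 and 6.75 on the labelled-control and 6.11, 6.01 and 5.83 on the labelled-mutant arrays. The lowest labelled-control array lay above the highest labelled-mutant array. The group means were 6.74 ± 0.14 and 5.98 ± 0.14 (SD, n = 3). The labelled-mutant level was 0.591 of the labelled-control level, with an interval from 0.5 to 0.699 (limma, Benjamini-Hochberg adjusted p = 0.00484). It passed in 13 of 14 alternatives, with differences between -0.83 and -0.58, and missed the threshold with floored signals (adjusted p = 0.0557), although its own signals lay above the floor of 4.08. The dimmer probe set gave -0.40 with groups that did not overlap (limma over all probe sets, Benjamini-Hochberg adjusted p = 0.156). Mmrn2 itself read 8.35, 8.89 and 7.89 against 8.46, 8.23 and 8.18, a difference of -0.09 whose interval from -0.58 to 0.41 is the widest of the list.

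No other surface or junction gene passed. Pecam1, the adhesion molecule CD31, read 6.40, 6.60 and 7.03 on the labelled-control and 6.99, 6.46 and 6.56 on the labelled-mutant arrays. Its difference was -0.01, with an interval from -0.42 to 0.41. Emcn, a sialomucin of veins and capillaries, read 8.55, 8.81 and 8.91 against 8.74, 8.57 and 8.67. Cldn5, the tight-junction claudin of endothelium, read 8.33, 8.50 and 8.42 against 8.45, 8.41 and 8.68. The differences of these were -0.10 and 0.10, with intervals from -0.34 to 0.14 and from -0.12 to 0.31. Cd34, a sialomucin of endothelium and blood progenitors, and Esam, an adhesion molecule of tight junctions, had differences of 0.00 and 0.01, and Plvap, a protein of endothelial diaphragms, had -0.16. Lyve1, the hyaluronan receptor of lymphatic vessels, read 4.26, 4.14 and 4.45 against 4.10, 4.26 and 4.23, too dim to show a change.

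Icam2, an adhesion molecule for leukocytes, read 7.97, 8.45 and 8.26 on the labelled-control and 8.02, 7.74 and 7.74 on the labelled-mutant arrays. Only labelled-mutant array 1 reached into the labelled-control range, and the difference of -0.39 (interval -0.70 to -0.09) did not pass (limma, Benjamini-Hochberg adjusted p = 0.155). Vwf, the clotting glycoprotein stored by endothelium and platelets, read 5.72, 6.11 and 5.35 against 5.45, 4.96 and 5.30. The groups overlapped at a difference of -0.49 with an interval from -0.93 to -0.05 (limma, Benjamini-Hochberg adjusted p = 0.218). Nos3, the endothelial nitric oxide synthase, differed by 0.02 with an interval from -0.18 to 0.23.

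Of the 17 genes with more than 1 probe set, 10 had probe sets of 1 sign throughout. The other 7, Angpt1, Angpt2, Eng, Flt1, Lyve1, Sox7 and Vegfa, had a difference of 0.00 or of both signs, with sizes up to 0.28. The probe sets of 1 gene lay less than 0.2 apart in 13 of 17, and the largest gap, 0.36, was that of Clec14a. Over all 60 probe sets, 3 passed, of Vegfc and Clec14a, against 2.14% of all 45101 probe sets.

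**Figure D3:**
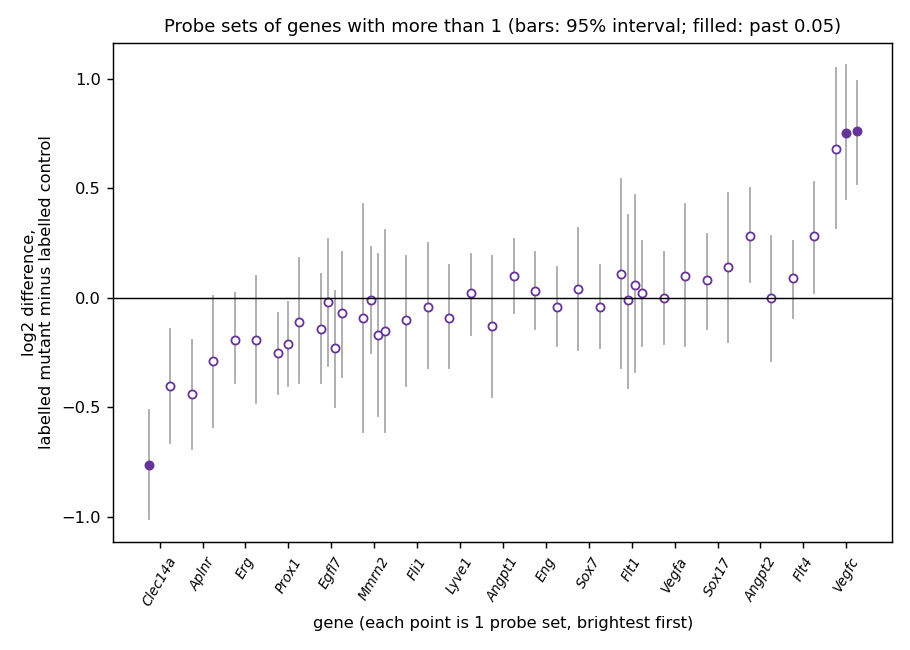
Log2 difference (labelled mutant minus labelled control, vertical axis) of every probe set of the 17 genes that have more than 1, with 95% intervals as lines and probe sets past 0.05 filled. The 3 probe sets of Vegfc stand between 0.68 and 0.76, and those of Clec14a at -0.76 and -0.40.

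The arrays varied among themselves by about as much as the groups differed. The mean deviation of the 35 genes from their 6-array means was -0.04, 0.12 and 0.05 on the labelled-control and 0.02, -0.08 and -0.07 on the labelled-mutant arrays. The groups overlap in this mean. Labelled-control array 1 and labelled-mutant array 3 were each the lowest array for 9 genes, and labelled-mutant array 2 was for 6. Labelled-control arrays 2 and 3 and labelled-mutant array 1 were highest for 9, 10 and 9 genes. Klf2 and Klf4, endothelial factors that respond to blood flow and in other cells to handling, split the arrays in another way. Klf4 read 11.23 on labelled-control array 2 and 11.13 on labelled-mutant array 1, and 9.43 to 10.05 on the other 4. Klf2 read 8.78 and 8.66 on the same arrays and 7.29 to 7.71 on the others.

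The other genes of the pathway come from lists chosen with earlier results of these data known. Their counts, here and in the next paragraph, stand beside 1.23% of all genes higher and 4.3% lower. Several of the called genes are ones that mesenchyme also expresses, and the part of mesenchyme was not tested. Of 24 further endothelial genes, 3 fell and 0 rose, with a median of -0.15. Nrp1, a co-receptor for VEGF that crest cells also carry, fell by 1.07, and the adaptor gene Ldb2 and the ETS factor Ets1 fell by 0.96 and 0.62 (limma, Benjamini-Hochberg adjusted p = 1.81e-04, 0.00118 and 0.00379). All 3 passed in each of 14 alternatives. With the mean of probe sets the differences were -0.94 for Nrp1, -0.99 for Ldb2 and -0.33 for Ets1. Cdh5 had a difference of -0.08 with an interval from -0.32 to 0.17. Of 18 arterial, venous and Notch genes, 1 rose and 1 fell, with a median of 0.08. Efnb2, the arterial ephrin that mesenchyme also makes, rose by 0.84 (limma, Benjamini-Hochberg adjusted p = 0.00137) and passed in each of 14 alternatives. With the mean of probe sets the rise of Efnb2 was 0.58. Cxcr4, a chemokine receptor, fell by 0.49 (adjusted p = 0.0406) and passed in 7 of 14. The call of Cxcr4 was lost without labelled-control array 2 or 3 (-0.38 and -0.51) and without labelled-mutant array 1, 2 or 3 (-0.52, -0.45 and -0.51).

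Of 6 further lymphatic genes, Ccbe1 fell and 5 did not pass. Ccbe1, whose product promotes the processing of VEGF-C, read 7.59, 7.17 and 7.32 on the labelled-control and 6.52, 5.97 and 6.10 on the labelled-mutant arrays, a fall of 1.16 opposite in sign to the rise of Vegfc (limma, Benjamini-Hochberg adjusted p = 0.00426). With the mean of its probe sets the Ccbe1 difference was -0.37 and did not pass. Of 15 other vessel signal genes, 2 fell and 0 rose, with a median of -0.14. These were the endothelin receptor gene Ednrb (-0.91), which marks crest-derived cells too, and the TGF-beta receptor gene Tgfbr2 (-0.56), at adjusted p = 0.0407 and 0.0366 with limma. Ednrb was lost without labelled-control array 1 (-0.99) and labelled-mutant arrays 2 (-0.85) and 3 (-0.84), and Tgfbr2 without labelled-control arrays 2 (-0.47) and 3 (-0.57) and labelled-mutant arrays 2 (-0.50) and 3 (-0.51). Of 17 genes of the hypoxia response, which governs Vegfa, only Ndrg1 passed, with a difference of -0.87 (adjusted p = 0.00413 with limma), and the list's median was 0.04.

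Lists of cell types that share genes with endothelium moved as follows. Of 15 pericyte and smooth muscle genes, Acta2 fell by 1.41, and the median was -0.04. Differences were below 0 for 8 of the 15. Rgs5, a pericyte gene of that list, was higher by 1.18 with groups that did not overlap. It did not pass (limma, Benjamini-Hochberg adjusted p = 0.126). Of 13 erythroid genes, Slc4a1 fell by 0.70, with a median of -0.22. Of 17 macrophage and leukocyte genes, Ptprc fell by 0.46, with a median of -0.18. Adjusted p was 0.0366 for Acta2, 0.0444 for Slc4a1 and 0.0406 for Ptprc (limma, Benjamini-Hochberg). Leaving out a single array ended these calls in most cases: Acta2 passed only without labelled-mutant array 1, Slc4a1 only without labelled-control array 1 or labelled-mutant array 1, and Ptprc only without labelled-mutant array 1. Averaged over probe sets, the differences were -0.41, -0.45 and -0.17, and that of Tgfbr2 was -0.13, none of them past the threshold. The averaged differences of Ednrb and Ndrg1 were -0.49 and -0.45, and both genes still passed. With floored signals, the calls of Ccbe1, Cxcr4, Ednrb, Tgfbr2, Ndrg1, Acta2, Slc4a1 and Ptprc were lost. Trend and robust settings ended that of Acta2 (limma, Benjamini-Hochberg adjusted p = 0.098). None of 8 megakaryocyte and platelet genes passed with limma, and 0 had an unadjusted p under 0.05. The mean signal of the macrophage and leukocyte genes was 6.25 to 6.67 on the labelled-control and 6.08 to 6.31 on the labelled-mutant arrays. Their part in the differences of Icam2, Vwf and Tal1 was not tested. Of the lists for the bulk of the arch, 7 of 12 mesenchyme genes passed (2 higher, 5 lower), as did 1 of 11 epithelial genes (higher), 3 of 10 muscle genes (lower) and 5 of 9 neuronal genes (lower), against 1.23% of all genes higher and 4.3% lower.

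**Figure D4:**
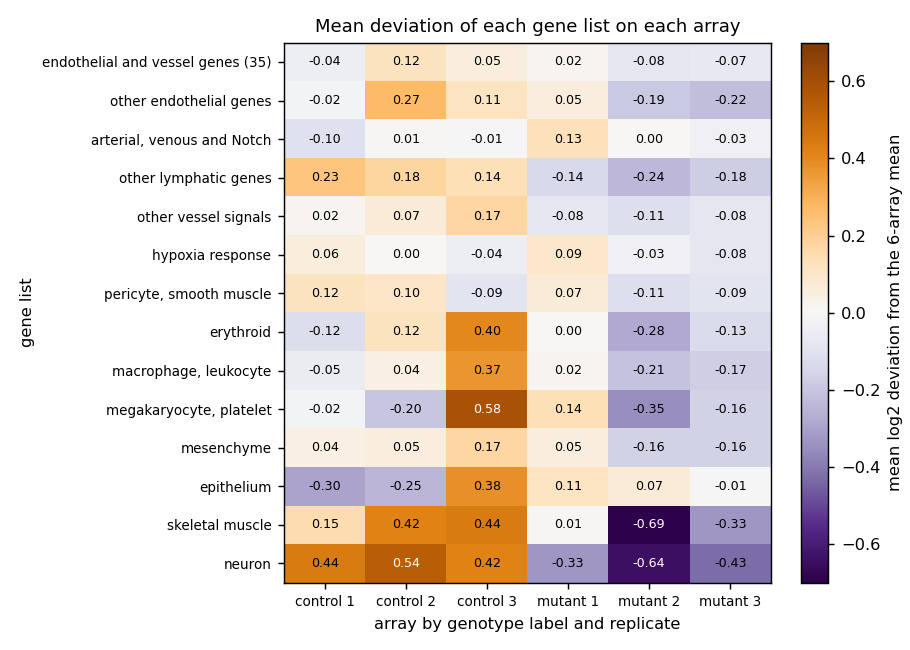
Mean log2 deviation from the 6-array mean (colour and printed value) of the 35 endothelial and vessel genes and of 13 other gene lists, on each array by label and replicate. The 35 genes stay between -0.08 and 0.12, while erythroid and megakaryocyte genes peak on labelled-control array 3 at 0.40 and 0.58. Macrophage, epithelial and skeletal muscle genes also peak on that array, at 0.37, 0.38 and 0.44.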

How the data were processed

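Biotin-labelled total RNA of 6 samples of branchial arch 1 was read on Affymetrix arrays, 1 colour each (the label and colour per the labels' protocols, the maker from the platform annotation). The authors deposited 1 value per probe set and array. The scale was taken as log2 from the deposited values (2.63 to 14.68, with the same quantiles on every array). How signals were background-corrected and summarised, and with which software, is not given in the sources used here. A shared distribution hides any shift of all genes. Of 45101 probe sets, 34958 had 1 gene symbol, 932 several (2 of them naming one of the 35 genes, not used) and 9211 none. The brightest probe set stood for each of 18194 genes. Differences were fitted with limma 3.58.1 (R 4.3.3; lmFit, eBayes, two-sided, no covariates). The number of arrays limits the precision. The genes and lists were chosen with earlier results of these data known. All 35 genes are named. Values per array are given for those past the threshold, those with a difference of at least 0.4 and a fixed set. Of each other list at most 4 called genes are named, with values per array for Ccbe1 only. Genes added after their values were seen are Flt4, Icam2, Mmrn2, Cdh5, Klf2, Klf4, Rgs5 and Hoxa9. Alternatives were a replicate block, median centring, further quantile normalization, the mean of probe sets, a filter and a floor on low signals, trend and robust settings, autosomal genes only, and leaving out each array. Promoter windows were found for 18 of the 35 genes.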

Additional observations from a re-analysis of the deposited data

How the results depend on the processing

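The count of endothelial and vessel genes past the threshold, 2 as reported, was 1 with a replicate block and 0 with floored signals. With floored signals 329 of all genes passed in place of 1007. Leaving out one array gave counts of 1 to 2. The count was 2 or 3 under the other alternatives, and the median difference of -0.09 stayed between -0.11 and -0.03 under all of them. Replicate numbers did not pair the samples, since deviations of same-numbered arrays correlated at -0.21 to -0.07 over genes. The replicate block cost Vegfc its call (limma, Benjamini-Hochberg adjusted p = 0.0513) and lowered the count over all genes to 657. Of the genes named from other lists, Cxcr4, Ednrb, Tgfbr2, Acta2, Slc4a1 and Ptprc also lost theirs under the block (0.0621 to 0.098). Of 487 single-gene differences of the 35 genes under alternatives, 451 kept sign and side of the threshold, 8 lost a call, 3 gained one (each Aplnr) and 25 changed sign without a call in either fit, in 14 genes. Over all genes the count was 551 without labelled-control array 2, and 481 and 435 without labelled-mutant arrays 2 and 3. With 3 arrays a label, differences as large as -0.62 (Tal1) did not pass, and Prox1 and Lyve1 were too dim to judge.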
